A study of Homo sapiens with 3 samples.

Results

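The promoter contacts of 10 genes of the vascular endothelial growth factor (VEGF) and angiopoietin systems were examined in cardiomyocytes made from WA09 (H9), a line of human embryonic stem cells, and abbreviated hESC-CM. The genes were the ligands VEGFA, VEGFB, VEGFC and PGF, their receptors KDR, FLT1 and FLT4, the angiopoietins ANGPT1 and ANGPT2, and the angiopoietin receptor TEK. Promoter capture Hi-C (PCHi-C) pulls ligated HindIII restriction fragments out of a Hi-C library with baits on promoters. The CHiCAGO score states the significance of the reads joining a pair of fragments over the background for their distance, not the size of the excess. The lowest score listed was 5. The samples were 3 biological replicates of 1 condition, so that the data hold no contrast between groups and no test was run. Monolayers were differentiated with a commercial kit, enriched for cardiomyocytes in lactate medium without glucose, and fixed once MYH7 and TNNT2 marked most cells. All came from this 1 line, some cells of other types remained, and a call from many cells cannot tell how many of them carry a contact. All coordinates are in GRCh37.

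VEGFA is the main ligand of KDR, the receptor that drives endothelial growth, whereas VEGFB and PGF bind FLT1, and VEGFC acts mainly on FLT4 in lymphatic endothelium. ANGPT1 activates TEK and stabilises vessels, and ANGPT2 competes with it at the same receptor. In the heart, muscle and supporting cells supply ligands to the endothelial cells that bear the receptors. Contacts in such cells join a promoter to promoter-interacting regions (PIRs), which may lie far along the chromosome.

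A promoter fragment was a baited fragment that held an annotated transcript start of the gene. In counts over the whole series every baited fragment in the calls was taken as a promoter fragment, also those without an annotated start. Of the 10 genes, 8 had such a fragment, 1 each, and PGF and FLT4 had none. Over all protein-coding genes, 77.1% had a promoter fragment. The 8 fragments took part in 120 of the 200587 contacts that any replicate called. All 3 replicates called 39 of them, 2 replicates called 22, and the other 59 came from a single replicate. At least 1 contact in all 3 replicates was held by 5 of the 10 genes, namely VEGFA, VEGFC, FLT1, ANGPT1 and ANGPT2, beside 43.1% of all protein-coding genes.

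The sequences below show what lay at the ends of the contacts called in all 3 replicates. All 128 fragments of these genes, promoters and PIRs alike, began and ended at HindIII sites of the reference. Both strands were searched for the core of the motif of CTCF, a DNA-binding protein found at many loop anchors, whose motif has a direction. At least 1 match was found in 5 of the 39 PIRs called in all 3 replicates and in 7 of the other 81 PIRs. Across the 116592 fragments in column 2 of the calls of the 3 replicates 2.49% held a match. That set leaves out PIRs listed only in column 1. Across all HindIII fragments of the genome 1.25% held one, and longer fragments held one more often. In 4 of the 5 PIRs called in all 3 replicates the match was directed towards the promoter fragment. One of the 5 belonged to ANGPT1 and its sequence is not shown. Matches in the other PIRs were directed both ways. Directions were not counted over the series, so that the 4 of 5 has no baseline here. Among the 8 promoter fragments, only that of VEGFA held a match. A match is a string of letters and shows no binding. The match is in capitals, with 30 bases on either side, read 5′ to 3′ on the strand of the motif.
VEGFA promoter fragment, chr6:43742634-43742705, plus strand, in a VEGFA exon: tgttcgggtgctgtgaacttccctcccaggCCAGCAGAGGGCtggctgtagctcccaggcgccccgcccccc
VEGFA PIR at 307.9 kb, chr6:44042425-44042496, minus strand, in an exon of ENSG00000231881: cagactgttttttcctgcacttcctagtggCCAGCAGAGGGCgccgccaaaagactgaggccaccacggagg
VEGFA PIR at 168.8 kb, chr6:43907160-43907231, plus strand, in an intron of SCIRT: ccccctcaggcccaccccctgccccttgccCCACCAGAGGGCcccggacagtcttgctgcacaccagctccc
VEGFC PIR at -251.8 kb, chr4:177968656-177968727, minus strand, in an intron of ENSG00000287544: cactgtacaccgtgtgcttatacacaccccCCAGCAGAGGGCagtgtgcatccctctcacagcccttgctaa
FLT1 PIR at 171.7 kb, chr13:28898492-28898563, plus strand, in an intron of FLT1: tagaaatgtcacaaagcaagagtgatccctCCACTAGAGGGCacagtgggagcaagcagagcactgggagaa
Among fragments within 10% of the same length, a match was held by 4.63% for the VEGFA promoter fragment, by 2.43% for the VEGFA PIR at 307.9 kb, by 1.76% for that at 168.8 kb, by 1.78% for the VEGFC PIR and by 0.222% for the FLT1 PIR. The match in the VEGFA PIR at 168.8 kb was the one directed away from the promoter fragment.

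The third highest contact of VEGFA ended on a PIR short enough to print whole, 224 bases at chr6:44027633-44027856 on the plus strand, in an intron of the long noncoding RNA gene SCIRT and overlapping an exon of ENSG00000231881. It held no match to the CTCF core. The capitals mark what HindIII leaves at either end.
VEGFA PIR at 290.3 kb: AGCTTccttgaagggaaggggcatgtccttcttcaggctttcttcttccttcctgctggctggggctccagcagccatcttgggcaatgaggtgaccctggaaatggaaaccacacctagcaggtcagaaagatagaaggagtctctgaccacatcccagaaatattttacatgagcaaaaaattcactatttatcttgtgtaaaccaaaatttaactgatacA

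VEGFA carried more contacts than any other of these genes. Its promoter fragment, chr6:43731585-43743257, held 24 of its 26 annotated transcript starts and was in contact with 32, 34 and 32 fragments in replicates 1, 2 and 3. The 44 distinct fragments placed it above 96.5% of all 19075 promoter fragments, whose median was 6. Of the 44, 22 were called in all 3 replicates, a share of 50%. In the whole series 24.0% of contacts were called in all 3 replicates, and 34.0% of those within 1000 kb. Among the 3083 promoter fragments with at least 20 contacts the median share was 29.7%, and 80.5% of those fragments had a lower share than VEGFA. The same value was 61.3% for VEGFC and 50.1% for ANGPT1.

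**Figure D1:**
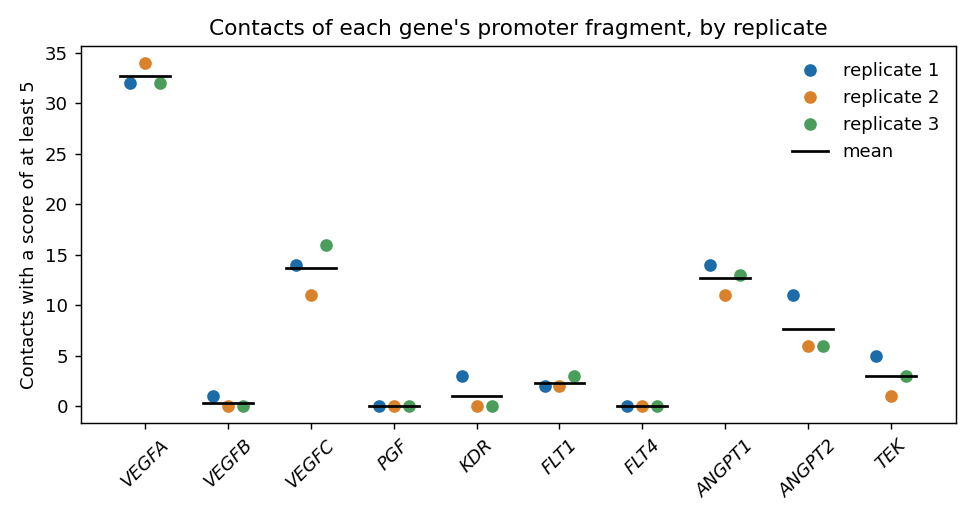
Number of contacts with a score of at least 5 of each gene's promoter fragment (vertical axis) by gene (horizontal axis), with 1 point for each hESC-CM replicate and a line at the mean. VEGFA lies at 32 to 34 contacts in every replicate, VEGFC and ANGPT1 between 11 and 16, and PGF and FLT4 at 0 because no promoter fragment of theirs was listed.

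All 44 contacts of VEGFA lay downstream of its start, at 7.5 to 486 kb, and none lay upstream. One-sidedness of this kind was seen in 35.3% of the promoter fragments with at least 20 contacts. The nearest contact, at 7.5 kb, ended inside VEGFA itself, with scores of 6.11, 5.7 and 5.29. Most of the others ended over long noncoding RNA genes that lie between VEGFA and the next coding genes. In all, 38 of the 44 PIRs overlapped noncoding genes only, 5 overlapped a protein-coding gene and 1 overlapped no gene.

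When PIRs separated by gaps of at most 10 kb were joined, the contacts of VEGFA fell into a few dense stretches. Between 162 and 242 kb downstream, chr6:43895942-43981514 held 14 contacts, 8 of them in all 3 replicates. A second stretch at 272 to 332 kb, chr6:44001929-44069671, held another 14 contacts, 9 of them in all 3 replicates. A smaller one at 62.6 to 70.6 kb held 5 contacts, 3 in all 3 replicates. Each of these stretches had contacts in every replicate.

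The highest scores of VEGFA came from the far stretch, where the PIR with the CTCF match at 307.9 kb had scores of 20.53, 15.89 and 13.23 in replicates 1 to 3. Its mean was 16.55 ± 3.69 (SD, n = 3). The adjoining PIR at 311.8 kb, chr6:44048952-44049426, scored 11.1, 13.87 and 16.88, a mean of 13.95 ± 2.89 (SD, n = 3). The spreads of the pair overlapped, and the replicates ranked them in different orders, with the first ahead in replicates 1 and 2 and the second ahead in replicate 3. The printed PIR at 290.3 kb scored 14.01, 13.34 and 11.86, with a mean of 13.07 ± 1.10 (SD, n = 3). Next came the PIR at 295.8 kb, with a mean of 10.24 ± 3.38 (SD, n = 3), and the PIR at 211.4 kb in a SCIRT intron, with a mean of 9.49 ± 1.23 (SD, n = 3). These means differed by less than the SD of the former.

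**Figure D2:**
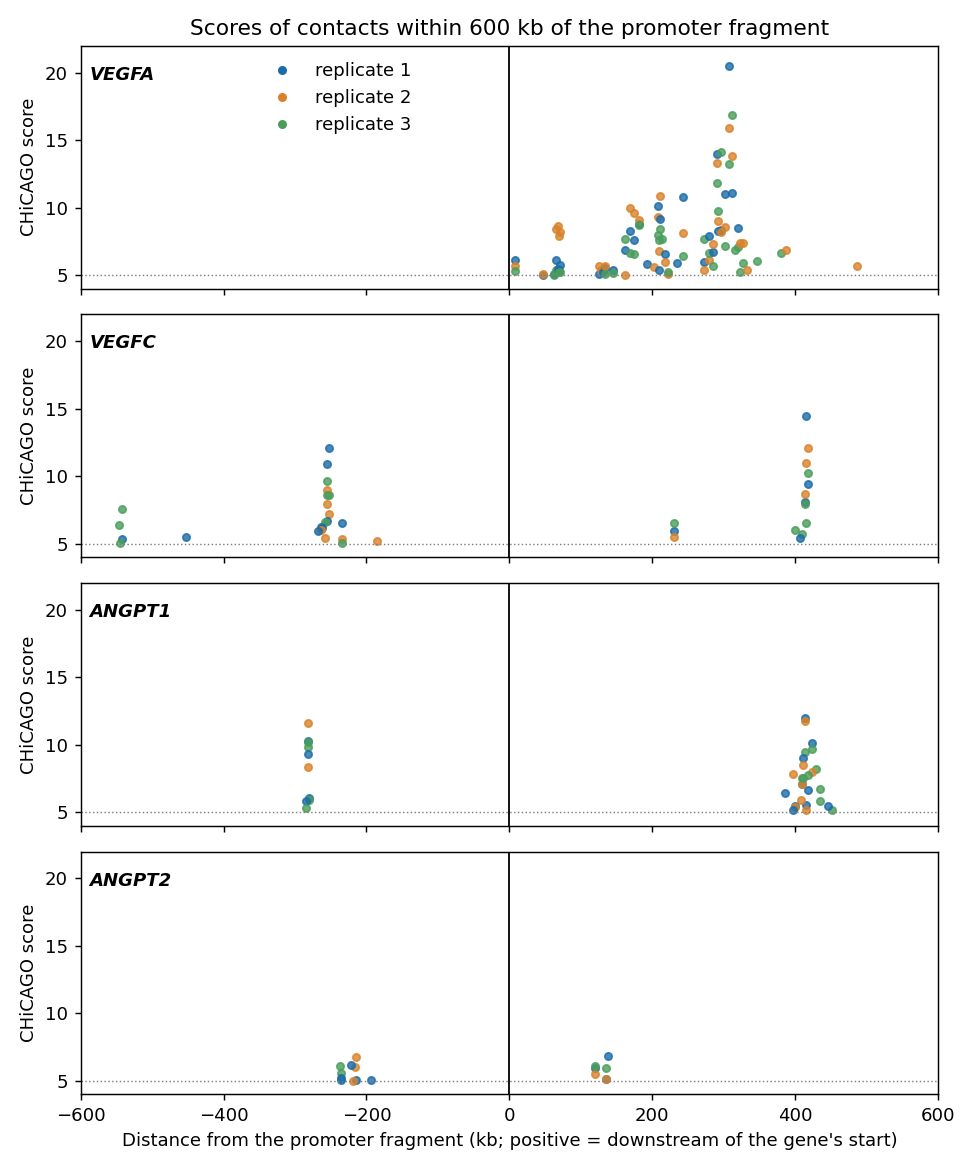
CHiCAGO score (vertical axis) against distance from the promoter fragment in kb (horizontal axis, positive downstream of the gene's start) for contacts of VEGFA, VEGFC, ANGPT1 and ANGPT2 within 600 kb. Each point is 1 contact in 1 replicate and the dotted line marks a score of 5. VEGFA points lie on the downstream side only, with the highest score of 20.53 at 307.9 kb, whereas VEGFC, ANGPT1 and ANGPT2 have narrow clusters on both sides.

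The near and far PIRs of VEGFA differed in how many other promoters reached them. The limit of 250 kb used here was chosen after the values were seen. Up to 250 kb, 4 of the 26 PIRs were also in contact with another promoter fragment, in no case with more than 1. Over 250 kb, 13 of the 18 PIRs had another promoter fragment, 9 had at least 3, and the most was 7. These counts take other promoter fragments called in any replicate. When calls in all 3 replicates were asked for, the most was 3, for the PIR at 311.8 kb. No PIR up to 250 kb then had another promoter fragment. The PIRs at 327.2 and 331.8 kb, with 7 others each, then had 2 each. VEGFA itself contacted the PIR at 331.8 kb in replicate 2 alone. Across the series 62.8% of PIRs were in contact with a single promoter fragment. The 2 promoter fragments whose PIRs were most like those of VEGFA were those of MRPS18A, a mitochondrial ribosomal protein gene, and RSPH9, which encodes a component of the ciliary radial spoke. MRPS18A shared 13 PIRs with VEGFA, 29.5% of those of VEGFA and 52% of its own. RSPH9 shared 10, which were 22.7% of the PIRs of VEGFA and 83.3% of its own. Both promoters lie upstream of VEGFA, at 82.1 and 122 kb between fragment midpoints.

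**Figure D3:**
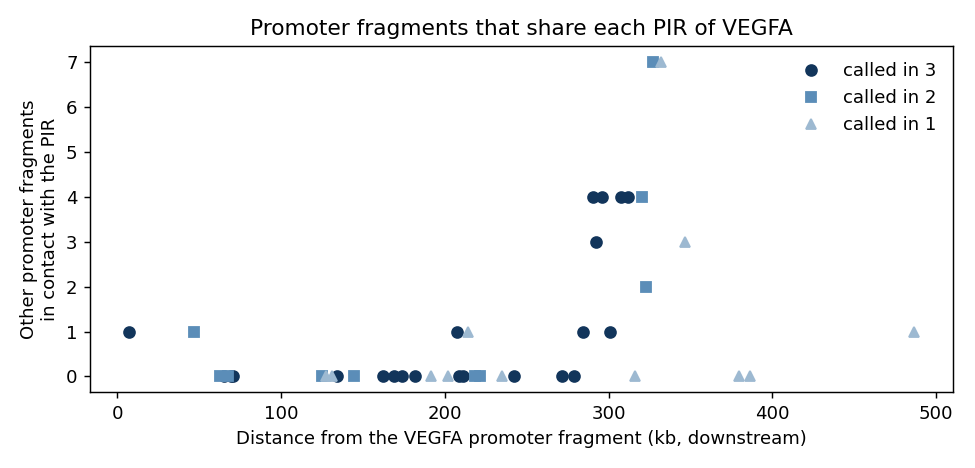
Number of other promoter fragments in contact with each VEGFA PIR (vertical axis) against its distance downstream of the VEGFA promoter fragment in kb (horizontal axis), with the marker showing in how many of the 3 replicates VEGFA contacted it. PIRs up to 250 kb have at most 1 other promoter fragment, and those shared with 3 to 7 others lie beyond it. Other promoter fragments count when any replicate called them.

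The promoter fragment of VEGFB, chr11:63997287-64018270, was the longest of the 8 at 20984 bases and held transcript starts of 7 other genes. Because a contact belongs to the fragment, it cannot be ascribed to VEGFB rather than to these neighbours. The promoter fragments of VEGFA, FLT1 and ANGPT1 each held a start of 1 other gene, ENSG00000272114, ENSG00000279393 and ENSG00000286766, and the same limit applies to them. The VEGFB fragment had 1 contact, in replicate 1 alone, with a score of 6.38. That contact ended 1387 kb upstream on the promoter fragment of SNHG1, a host gene of small nucleolar RNAs. The merged replicates did not list it.

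VEGFC was in contact with 14, 11 and 16 fragments in replicates 1 to 3, 22 in all, which is more than 85.9% of promoter fragments had. Of the 22, 8 were called in all 3 replicates. Its promoter fragment, chr4:177713219-177717160, reached out on both sides, with 15 contacts upstream and 7 downstream, at a median of 403 kb. The nearest contact was 185 kb away. Of the 22 PIRs, 13 lay in a pair of short clusters. Downstream, chr4:177295698-177316002 held 6 PIRs at 400.1 to 418 kb in a stretch without annotated genes. Upstream, chr4:177964364-177986290 held 7 PIRs at 252 to 267 kb inside the noncoding gene ENSG00000287544. Each cluster had 3 contacts in all 3 replicates. The remaining contacts called in all 3 replicates were single PIRs at 230.0 kb downstream and 234 kb upstream. A further 3 PIRs lay together at 542 to 546 kb upstream, over NEIL3, each called in 1 or 2 replicates.

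The highest mean score of VEGFC belonged to the downstream PIR chr4:177299598-177301791, with 14.47, 11.0 and 6.52 in replicates 1 to 3, and so 10.66 ± 3.99 (SD, n = 3). Its neighbour chr4:177295698-177299597 varied less, with 9.4, 12.09 and 10.26, a mean of 10.58 ± 1.37 (SD, n = 3). On the upstream side chr4:177969701-177970657 scored 10.92, 9.01 and 9.64, or 9.86 ± 0.97 (SD, n = 3). The PIR with the CTCF match, chr4:177964364-177969700, scored 12.07, 7.22 and 8.61, or 9.30 ± 2.50 (SD, n = 3). These 4 means lie within 1 SD of each other for the most variable of them, so that neither side stood above the other. The PIRs of VEGFC were most like those of the promoter fragment shared by NEIL3, which encodes a DNA glycosylase, and ENSG00000287544. It lies 509 kb away and shared 5 PIRs, 22.7% of those of VEGFC and 71.4% of its own. The promoter fragment of the noncoding gene ENSG00000248388, 124 kb away, shared 4.

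**Figure D4:**
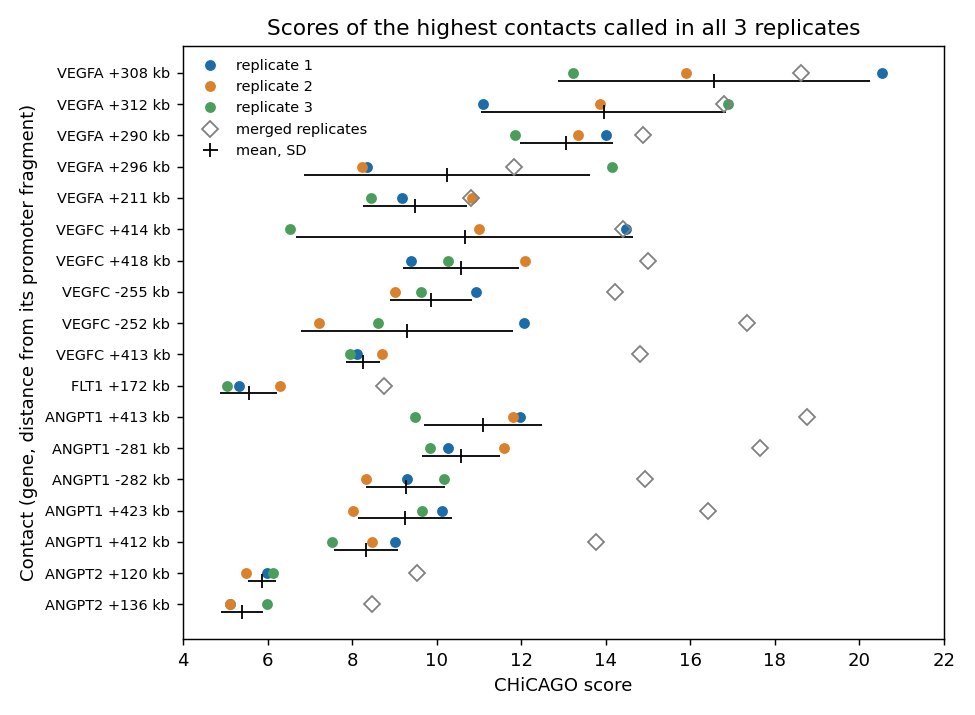
CHiCAGO scores (horizontal axis) of up to 5 contacts per gene with the highest mean score among those called in all 3 replicates (vertical axis, gene and distance from its promoter fragment). Filled points are replicates, black bars the mean and SD over the 3 replicates, and open diamonds the score on the merged replicates. The diamonds of VEGFC and ANGPT1 lie to the right of their means by more than those of VEGFA do.

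Neither PGF nor FLT4 had a baited fragment at an annotated start among the calls, so their promoters could be seen only as the other end of a contact of another promoter. The fragment with 7 of the 8 PGF starts, chr14:75420888-75427857, was listed by no replicate. The fragment with 7 of the 12 starts of FLT4, chr5:180075408-180081671, was listed in replicate 1 in contact with the promoter fragment of RASGEF1C, a guanine nucleotide exchange factor gene. Whether these fragments were baited was not analysed here, and the absence of contacts of PGF and FLT4 is no measurement of their promoters.

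KDR had few contacts, and no contact of it was called in more than 1 replicate. Its promoter fragment, chr4:55989818-56001234, had 3 contacts in replicate 1 and 0 in replicates 2 and 3. All 3 were distant. The highest, with a score of 17.61, ended on another chromosome, at chr9:15026542-15027084 in an intron of ENSG00000291185, and was the only contact between chromosomes among the 120. The others lay 1865 kb downstream and 70064 kb upstream, with scores of 5.17 and 5.46. None of the 3 was listed on the merged replicates.

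In the replicates FLT1 had contacts in a single stretch, and every one of them ended within the gene itself. Its promoter fragment, chr13:29067651-29072162, contacted 2, 2 and 3 fragments in replicates 1 to 3, 4 in all, at 161 to 172 kb downstream. The PIR with the CTCF match was called in all 3 replicates, with scores of 5.32, 6.3 and 5.03 and a mean of 5.55 ± 0.67 (SD, n = 3). These are close to the lowest score listed, and the merged replicates gave it 8.75. The other 3 PIRs were called in 1 or 2 replicates, at mean scores of 5.11 to 5.67. All 4 PIRs were also in contact with the promoter fragment of POMP, which encodes the proteasome maturation protein and lies 163 kb away on the other side of the FLT1 promoter. They made up 36.4% of the 11 PIRs of POMP. The merged replicates added 2 contacts of FLT1 that no replicate called. One lay 173.9 kb downstream within the gene, and the other 142.8 kb upstream in no gene, with scores of 5.96 and 5.66.

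ANGPT1 had 14, 11 and 13 contacts in replicates 1 to 3 and 20 in all, more than 83.8% of promoter fragments. Of the 20, 6 were called in all 3 replicates. Its promoter fragment is chr8:108508434-108513288. The contacts formed 1 cluster on either side. Downstream, 15 PIRs lay at 386 to 452 kb, beyond the end of the gene, and 4 of them were called in all 3 replicates. Upstream, 4 PIRs lay at 280.5 to 285 kb, with 2 in all 3 replicates. None of these 19 PIRs overlapped an annotated gene. The only other contact, at 1438 kb, was called in replicate 2 alone. Few other promoters shared the PIRs of ANGPT1, of which 18 of 20 were in contact with no other promoter fragment.

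The highest contact of ANGPT1 was at 413.4 kb downstream, with scores of 11.98, 11.8 and 9.49 and a mean of 11.09 ± 1.39 (SD, n = 3). The highest upstream, at -281.3 kb, scored 10.26, 11.6 and 9.84, a mean of 10.57 ± 0.92 (SD, n = 3). The difference between the sides was smaller than either SD. This upstream PIR spanned 168 bases and held the CTCF match mentioned above, directed towards the promoter. Of the fragments of like length, 0.0431% held one. The next 3 contacts, at -282.2, 422.8 and 411.5 kb, had mean scores of 9.27 ± 0.93, 9.26 ± 1.11 and 8.33 ± 0.75 (SD, n = 3).

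ANGPT2 had 11, 6 and 6 contacts in replicates 1 to 3, and 17 in all, of which 2 were called in all 3 replicates and 13 in a single one. Its promoter fragment, chr8:6418661-6423639, lies within an intron of MCPH1, a gene of chromosome condensation that is transcribed the other way. Both contacts called in all 3 replicates ended in other introns of MCPH1, downstream of ANGPT2. The PIR at 120.3 kb scored 5.98, 5.5 and 6.13, a mean of 5.87 ± 0.33 (SD, n = 3), and that at 135.8 kb scored 5.11, 5.11 and 5.98, a mean of 5.40 ± 0.50 (SD, n = 3). Upstream, 8 PIRs lay at 194 to 237 kb and all 8 were also in contact with the promoter fragment of MCPH1. The 3 PIRs of ANGPT2 at 120.3 to 138 kb downstream were in contact with the promoter fragment of AGPAT5, which encodes an acyltransferase of phospholipid synthesis. The remaining 6 contacts were 2238 to 127638 kb away, and each was called in 1 replicate.

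TEK had 5, 1 and 3 contacts in replicates 1 to 3, and no fragment recurred, so that all 9 were called in 1 replicate and none on the merged replicates. The nearest was 3566 kb from its promoter fragment, chr9:27104216-27113300. The highest score was 10.6, in replicate 3, on the promoter fragment of SLC24A2, a sodium, calcium and potassium exchanger gene, 7321 kb upstream. Although no fragment recurred, 5 of the 9 lay near each other at 5063 to 5210.2 kb downstream, 3 from replicate 1 and 2 from replicate 3. They are named here after their values were seen.

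Over the 8 genes, replicates 1 to 3 gave 82, 65 and 73 contacts, a mean of 73.3 ± 8.5 (SD, n = 3). The share called in all 3 replicates was 32.5% (95% Wilson interval 24.8 to 41.3%), beside 24.0% of all contacts, and the lower bound of the interval lies close to the latter. Within 1000 kb it was 39 of 98, or 39.8%, beside 34.0%. VEGFA supplied 44 of the 120 contacts and 22 of the 39, and its own share was 50%. The share was 36.4% for VEGFC, 30% for ANGPT1, 25% for FLT1, 11.8% for ANGPT2 and 0 for VEGFB, KDR and TEK. The interval treats contacts as independent, although many ended on neighbouring fragments. Joining ends within 5 kb left 51, of which 29.4% had calls in all 3 replicates. Replicates 1 and 2 shared 48 contacts, 58.5% of those of replicate 1 and 73.8% of those of replicate 2. The shared numbers were 47 for replicates 1 and 3 and 44 for replicates 2 and 3.

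**Figure D5:**
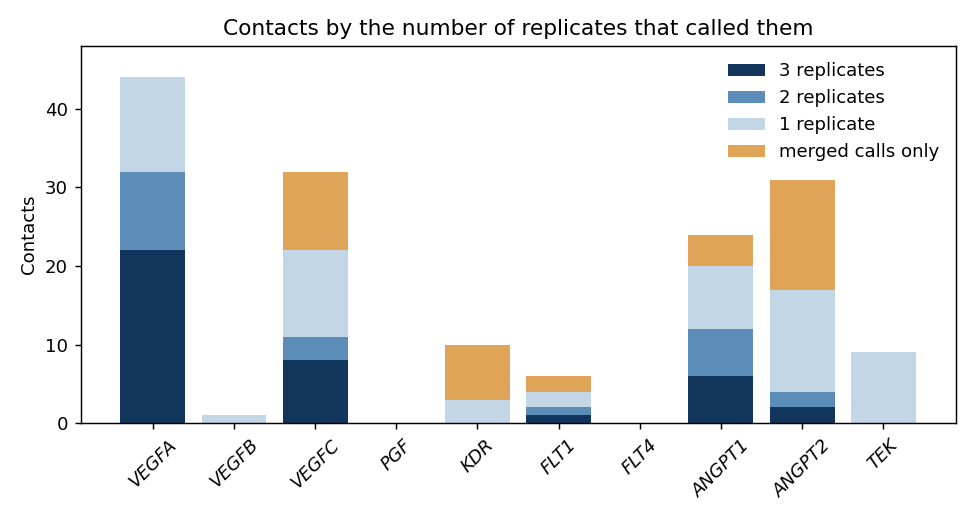
Number of contacts of each gene (vertical axis) by gene (horizontal axis), stacked by whether 3, 2 or 1 replicates called them, with contacts listed on the merged replicates only on top. The 22 contacts of VEGFA in all 3 replicates are the tallest dark segment, TEK and VEGFB have contacts in 1 replicate only, and KDR and ANGPT2 gain 7 and 14 on the merged replicates.

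Contacts called in all 3 replicates were the nearer ones by their median. On the same chromosome the median was 292 kb, against 716 kb for all contacts of the series. Contacts called in all 3 replicates had a median of 255 kb and lay between 7.5 and 423 kb. Over the whole series contacts in all 3 replicates were also the nearer ones, with a median of 395 kb. Contacts of these genes called in 1 replicate had a median of 432 kb. All 21 contacts over 1000 kb on the same chromosome were called in 1 replicate, and most of them belonged to TEK and ANGPT2. Over the whole series the share called in all 3 replicates was 24.0% of all contacts and 34.0% of those within 1000 kb. The remaining contacts of the series thus recurred less often too. Of the 119 contacts on the same chromosome, 85 lay downstream and 34 upstream, and VEGFA supplied 44 of the downstream ones.

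Of the 120 PIRs, 23 (19.2%) overlapped a protein-coding gene, 56 (46.7%) a noncoding gene only and 41 (34.2%) no gene. Over all 120857 PIRs of the series the shares were 56.6, 15.3 and 28.2%. VEGFA alone supplied 38 of the 56 PIRs over noncoding genes only. Among the 39 called in all 3 replicates the counts were 4, 25 and 10, and VEGFA supplied 21 of the 25. In 6 contacts the other end was itself a promoter fragment, and each of these was called in 1 replicate. No share of such contacts over the series is given, so that these counts have no baseline here. No contact joined any pair of the 8 promoter fragments, most of which lie on different chromosomes. For 66 of the 120 the PIR was in contact with no other promoter fragment.

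The calls on the merged replicates listed 119 contacts for these genes, 37 of them (31.1%) called in no single replicate, beside 25.5% for the whole series. VEGFA had 30 merged contacts, none of them new, against 44 in the replicates. VEGFB and TEK had no merged contact, whereas VEGFC gained 10, KDR 7, FLT1 2, ANGPT1 4 and ANGPT2 14. All 39 contacts called in all 3 replicates were listed on the merged replicates. Their merged score exceeded the mean of the replicates by a median of 0.78 for VEGFA (range 0.24 to 2.85), 4.39 for VEGFC (2.67 to 8.03) and 6.36 for ANGPT1 (4.69 to 7.66). The median over all such contacts of the series was 3.21.

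Of 28 other genes of the pathway, 22 had a promoter fragment and 8 had a contact in all 3 replicates. Over all protein-coding genes the shares were 77.1% with a promoter fragment and 43.1% with such a contact. The median was 4 contacts for the 28 and 6.5 for the 10 genes above. Genes without a promoter fragment counted as 0 here, so that both medians include genes that were not measured. Over all protein-coding genes the median was 5. The 3 of the 28 with most contacts were NRP2 and NRP1, co-receptors of VEGF, and HIF1A, the hypoxia-inducible regulator of VEGFA. NRP2 had 108 contacts over 2 promoter fragments, 30 of them in all 3 replicates. HIF1A had 43 from 1 promoter fragment, with 29 in all 3, and NRP1 had 34 over 2 promoter fragments, with 14 in all 3. VEGFD, SHC2, CDH5, ANGPTL1, ANGPTL4 and DOK2 had no promoter fragment, and so their lack of contacts is no measurement. Contacts are not expression, and so the labelled cell type could not be checked from them. All 7 cardiomyocyte and all 5 fibroblast and smooth muscle marker genes had a promoter fragment and a contact in all 3 replicates. Among protein-coding genes 8674 had such a contact, of 15517 with a promoter fragment and 20136 in all (43.1%). Of 6 endothelial markers 4 had a promoter fragment and 1 such a contact. Of 4 pluripotency markers only SOX2 had a promoter fragment, with 41 contacts and 23 in all 3 replicates, so that the other 3 were not measured.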

How the data were processed

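Calls from PCHi-C of hESC-CMs were analysed, 1 set for each of 3 biological replicates and 1 for the merged replicates. The authors used HiCUP for mapping and CHiCAGO, with its defaults, for calling, and the deposited score of each pair of HindIII fragments starts at 5. Merged scores were used as the authors' own pooled values. No read counts were analysed here, so the depth behind a score is unknown, and a contact missing from a replicate may only have scored below 5.

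A contact was an unordered pair of a promoter fragment (column 1 of the calls) and another fragment, matched by exact coordinates. Transcript starts and genes came from GENCODE v44 lifted to GRCh37, whereas the baits followed Ensembl v75. Distances ran between fragment midpoints, signed by the gene's strand. Shared PIRs were counted over the union of replicates, as shared over PIRs of either fragment, from 3 shared upwards. Means and SDs are over replicates, and Wilson intervals (95%) cover counting error only and treat contacts as independent. With 1 group there was no test; 3 against 3 samples could reach an exact two-sided p of 0.10 at the lowest.

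The genes and lists were chosen with earlier results of these data known. For each gene the text names up to 5 contacts with the highest mean score in all 3 replicates, or the single highest where there were none, promoter fragments of other genes contacted in all 3 replicates, and the 2 promoter fragments with the most similar PIRs. PECAM1 could not be counted, as the annotation used did not list its symbol. Sequences were read from GRCh37, and the CTCF core of 12 letters was searched as a pattern. The counting was tested on simulated calls. Python 3.11.15 with numpy 2.4.6, scipy 1.17.1, matplotlib 3.10.9 and pysam 0.24.0 was used. Alternatives were scores of at least 7 and 10, merged calls, each replicate left out, 1 column order, 1 chromosome, joined ends within 5 kb and coding starts.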

Additional observations from a re-analysis of the deposited data

Results flagged for a closer look

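Some signal lay in calls that the counts above leave out. An internal start of FLT1, on chr13:28894979-28896983, was in contact with the POMP promoter fragment in all 3 replicates, with scores of 7.9, 5.65 and 6.44 and a mean of 6.66 ± 1.14 (SD, n = 3). Start fragments of FLT4 were listed only as the other end of a contact. That with 7 starts scored 9.72 with the RASGEF1C promoter fragment in replicate 1 and 5.57 on the merged replicates. Another with 2 starts, chr5:180010097-180041196, scored 6.89 with the RASGEF1C promoter fragment in replicate 1. The merged replicates did not list the latter contact. The PGF start fragment was listed on the merged replicates alone, with a score of 6.27 and a baited fragment 120.5 kb away. KDR had 7 contacts on the merged replicates that no replicate called, with scores of 5.19 to 7.57. Of these, 2 lay 156.2 and 158.2 kb downstream and 5 lay 180.8 to 193.8 kb upstream. The merged replicates are no independent sample of the same cells.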

How the results depend on the processing

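The total of 120 contacts was 49 at a score of at least 7 and 18 at 10. Without 1 replicate it was 94 to 108. The share in all 3 replicates, 32.5%, was 16.7% at a score of at least 10. Without 1 replicate the share called in both others was 43.5 to 48.5%, higher by construction, as 2 rather than 3 calls were asked for. The median distance of 292 kb was 234 kb on the merged replicates and 255 kb among contacts in all 3, and 275 to 290.3 kb without 1 replicate. The upstream share of 28.6% was 18.8% at a score of at least 7, 35.3% on the merged replicates and 15.4% among contacts in all 3, and 25.5 to 29% without 1 replicate. The cause of these shifts was not tested. Of 33 such settings for these 4 values, 21 stayed within 1.5 times (the total), the Wilson interval (the share) or 1 SD over replicates (the rest). For the counts and highest scores of single genes 56 of 82 did by the same limits. Some settings in both tallies could not move a value. Coding starts left every promoter fragment in place, and a highest score from 1 replicate stays the same when another is left out. Without replicate 1, KDR and VEGFB had no contact, TEK 4 and ANGPT2 10. Joining ends within 5 kb left 51 contacts. No paired analysis was possible because there was 1 group.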
